A study of Mus musculus with 15 samples.

Results

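Aminoacyl-tRNA synthetases attach each amino acid to its transfer RNA, and 36 of their genes are described here in mouse brown adipose tissue. They were chosen by symbol from the 24030 rows of the deposited gene table. The rule reads no measured value, but the list was chosen with earlier results of these data known. It holds 20 genes whose enzymes work in the cytosol and 16 genes with a final 2 in the symbol whose enzymes work in mitochondria. The list does not hold every gene of the family. All 36 were found, and all 36 passed the filter on low counts, with 93 to 6552 counts in a library.

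Bulk RNA sequencing covered mice with a BAT-specific deletion of DJ-1 (BDJ1KO, here KO) and flox mice without it (here WT). The gene of DJ-1 is Park7, and its protein senses oxidants. Housing of either genotype lasted 8 weeks, at room temperature, where a mouse must make extra heat, or at 29 °C, close to its thermoneutral zone. The groups held 4 WT and 4 KO libraries at room temperature, and 4 WT and 3 KO libraries at 29 °C. The driver of the deletion, the mice's age and sex, and whether each library came from a separate animal are not given in the sources used here, and a p-value then reflects only how much these samples vary.

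A synthetase reads both its amino acid and its transfer RNA, and falls into class I or class II by the fold of its catalytic domain. Most amino acids have one gene for the cytosol and another for mitochondria. Gars and Kars supply both places from the same gene, Eprs encodes a fused enzyme for glutamate and proline, and Farsa and Farsb encode the subunits of the cytosolic phenylalanine enzyme. Of the cytosolic genes, 8 encode enzymes of the multi-synthetase complex, which is held together by the scaffold proteins of Aimp1, Aimp2 and Eef1e1. Many cytosolic synthetase genes are known targets of ATF4, the transcription factor of the integrated stress response. The mitochondrial enzymes, made in the cytosol and imported, serve translation of the 13 proteins that mitochondrial DNA encodes, all of them parts of the respiratory chain or ATP synthase, on which brown fat relies when it burns lipid to make heat.

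Promoter sequences are shown for reference, and whether members that moved together share letters near their starts was not tested. Windows of 250 bases before to 50 after the gene start (RefSeq, GRCm38.p6) were held for 26 of the 36 members; Cars, Hars, Lars, Mars, Nars, Rars, Vars, Wars, Hars2 and Pars2 had none. The letters TGATGNAA, a composite site for ATF4 with C/EBP, were searched on both strands and found in 5 of the 26 (19.2%), all cytosolic, among them Gars, Iars, Tars and Yars. They stood in 4.51% of the 27025 genes with a window. The NRF1 letters (GCGCA, any base, then GCGC, on both strands) were found in Farsb, Iars2, Kars, Mars2 and Tars, the last of which also held the ATF4 letters. That was again 5 of 26 (19.2%), against 5.19% of genes with a window. The letters TNAAGGTCA, bound by estrogen-related receptors, were found in 0 of 26, against 1.43% of genes. A match is only a run of letters, and no match says only that these letters are not in the window. Matches that lay wholly before the gene start are printed for Gars, Tars and Kars 5′ to 3′ on the gene's strand, with the match in capitals and 10 bases on either side where the start allowed.
Gars, ATF4 letters, chr6:55037961-55037988 (+): ggctgcgctaTTTCATCAtgcaccgggc
Tars, ATF4 letters, chr15:11399659-11399683 (-): aggagtcccgTTGCATCAgctggtt
Kars, NRF1 letters, chr8:112011384-112011413 (-): gcccagcactGCGCCTGCGCagcgagagtc
Tars, NRF1 letters, chr15:11399808-11399837 (-): ggggaagagtGCGCTTGCGCgcctcactac
The ATF4 letters read on the opposite strand in both promoters. They began 30 bases before the start of Gars and 15 before that of Tars.

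Park7 checked the genotype labels: it ran from 104 to 128 CPM (counts scaled to a common library size by TMM) in the 8 WT libraries and from 25.0 to 35.2 CPM in the 7 KO libraries. Summed markers of brown adipocytes were 11800 to 14120 CPM in WT and 7735 to 14150 CPM in KO at room temperature, 2980 to 4076 CPM in WT at 29 °C and 9082 to 11690 CPM in KO at 29 °C, with none of the 9 markers at 0. Ucp1, 1 of these 9, averaged 8602, 7001, 1019 and 7233 CPM in the same order, so the sum leaned on 1 gene. In KO against WT at 29 °C 6 of the 9 were higher and 1 lower, at an adjusted p under 0.05 in edgeR's test. The 6 general adipocyte markers summed to 12840 to 14880, 11440 to 15440, 8701 to 10040 and 9777 to 11500 CPM. Other cell types differed too. The 10 endothelial markers summed to 574 to 728, 481 to 612, 1532 to 2055 and 663 to 879 CPM in the same order, the 10 lymphocyte markers to 3.44 to 4.85, 3.75 to 7.29, 6.81 to 9.88 and 26.1 to 35.6 CPM, and the 9 macrophage markers to 85.4 to 114, 74.4 to 162, 198 to 309 and 339 to 494 CPM. By the same test 3 macrophage markers were higher and Cd163 lower (-1.37) in KO against WT at 29 °C. Of all genes tested 24.7% were higher and 20.0% lower there. The 10 skeletal muscle markers stayed at or below 1.86 CPM at room temperature, with 2 of them at 0, and reached 1286 CPM in WT replicate 2, 543 CPM in KO replicate 2 and 1808 CPM in KO replicate 3 at 29 °C, against 2.28 to 11.3 CPM in the other libraries there. The share of counts from mitochondrial DNA was 30.2% to 41.6% in the WT libraries at 29 °C and 22.7% to 27.4% elsewhere. In bulk tissue, fewer cells of a type and less RNA per cell cannot be told apart, and the part of these differences in the synthetase results was not tested.

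In WT brown fat at room temperature, levels per kilobase of transcript had a median of 17.9 CPM per kb over the 20 cytosolic genes and 12.1 CPM per kb over the 16 mitochondrial genes. Gars, which charges glycine, had the highest cytosolic level (66.5 CPM per kb), and Cars, which charges cysteine, the lowest (4.29 CPM per kb). Iars2, the mitochondrial isoleucine enzyme, led its compartment (31.2 CPM per kb). Mars2, for methionine in mitochondria, was the lowest at 0.659 CPM per kb, a value divided by an annotated transcript of 11294 bases. Between paired genes for the same amino acid, the mitochondrial member ran from 3.12% (methionine) to 515% (isoleucine) of the cytosolic one per kb. Length was that of the longest annotated coding transcript, so these values depend on which transcripts brown fat makes.

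Summed over genes, the cytosolic set reached 1057 to 1129 CPM in WT and 1122 to 1268 CPM in KO at room temperature. At 29 °C it was 745 to 797 CPM in WT and 1070 to 1309 CPM in KO. On this TMM scale the cytosolic sum of WT at 29 °C lay below every room-temperature library, and KO at 29 °C overlapped with both room-temperature groups. Scaled by the total count instead, WT at 29 °C (785.4 to 955.1 CPM) overlapped with WT at room temperature (948.2 to 1031 CPM), and KO at 29 °C (1266 to 1420 CPM) lay above KO at room temperature (1033 to 1123 CPM). KO lay above WT at 29 °C without overlap under either scaling. The mitochondrial set summed to 654 to 705 CPM in WT and 666 to 794 CPM in KO at room temperature, and to 324 to 364 CPM in WT and 383 to 488 CPM in KO at 29 °C. Both 29 °C groups lay below all room-temperature libraries in that sum, with KO above WT and no overlap, also when scaled by the total count. The mitochondrial sum was 61.5% to 63.7% of the cytosolic sum in WT and 52.8% to 70.8% in KO at room temperature, 41.2% to 48.9% in WT at 29 °C and 35.5% to 40.2% in KO at 29 °C. That share was below every room-temperature library in both 29 °C groups, and lowest in KO.

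**Figure D1:**
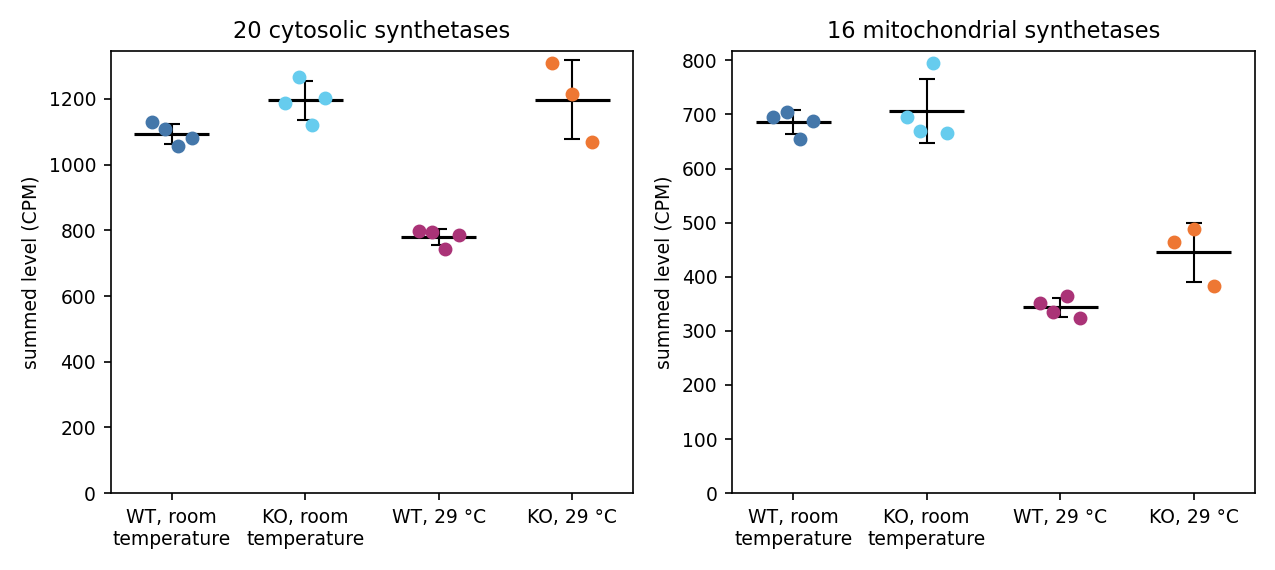
Summed TMM-scaled CPM of the 20 cytosolic (left) and the 16 mitochondrial (right) synthetase genes, 1 point per library, with the mean and SD of each group. The cytosolic sum of KO at 29 °C (1070 to 1309 CPM) sits among the room-temperature values on this scale (not when scaled by the total count), and the mitochondrial sum of KO at 29 °C (383 to 488 CPM) sits between those of WT at 29 °C and the room-temperature groups.

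Housing at 29 °C in WT lowered most synthetase genes. All 16 mitochondrial genes were lower, by a median of 0.92 on the log2 scale, led by the enzymes for tyrosine (Yars2), asparagine (Nars2) and isoleucine (Iars2). Of the 20 cytosolic genes 13 fell, 2 rose and 5 did not pass, and the median was -0.31. Among all 15083 genes tested 32.8% were called lower and 35.9% higher (68.8% in either direction), with a median of 0.06. The calls are adjusted p under 0.05 in edgeR's quasi-likelihood test over all genes.

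Yars2 measured 32.8, 30.1, 30.9 and 29.7 CPM in the WT libraries at room temperature and 9.57, 10.8, 9.13 and 10.05 CPM at 29 °C. The groups were far apart, a 3.12-fold difference (log2 fold change -1.64 ± 0.08 SE, adjusted p = 3.12e-10). Nars2 went from 21.3, 22.2, 21.95 and 20.95 CPM to 7.70, 7.71, 8.26 and 7.51 CPM, a narrow range on either side (-1.47 ± 0.07, adjusted p = 3.41e-10). Iars2 went from 175, 186, 164 and 158 CPM to 64.4, 64.4, 66.6 and 59.4 CPM, again without overlap (-1.42 ± 0.09, adjusted p = 2.35e-09). Sars2, the mitochondrial serine enzyme, went from 22.8, 18.9, 18.9 and 22.5 CPM to 8.53, 9.10, 9.025 and 6.78 CPM, with replicate 4 the lowest at 29 °C (-1.31 ± 0.12, adjusted p = 5.82e-08). The alanine, valine and phenylalanine enzymes of mitochondria also fell to less than 50% of the room-temperature level, with log2 fold changes of -1.20 for Aars2, -1.10 for Vars2 and -1.05 for Fars2. The smallest mitochondrial falls were in Hars2 for histidine (-0.26 ± 0.09, adjusted p = 0.0183), the only mitochondrial gene whose groups overlapped, in Mars2 (-0.40) and in Tars2 for threonine (-0.47). The other mitochondrial genes, Rars2, Lars2, Pars2, Cars2, Ears2 and Wars2, lay between -0.98 and -0.68. Of the mitochondrial genes 15 of 16 did not overlap between the groups, against 30.5% of all genes tested that were lower without overlap.

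Among the cytosolic genes Mars, which charges methionine and also loads the initiator tRNA, fell most. It went from 62.1, 64.9, 59.3 and 64.0 CPM to 30.3, 31.5, 23.0 and 22.9 CPM, with no overlap (-1.22 ± 0.10, adjusted p = 4.97e-08). Gars followed, from 171, 148, 157.5 and 157 CPM to 81.1, 83.4, 69.4 and 79.3 CPM (-1.02 ± 0.08, adjusted p = 3.2e-08), and no library of the one group reached those of the other. Qars for glutamine (-0.88), Aars for alanine (-0.82), Farsb (-0.81), Hars for histidine (-0.73) and Eprs (-0.72) came next. Dars for aspartate fell by 0.43 on the log2 scale, and Sars, Iars, Yars, Nars and Kars, for serine, isoleucine, tyrosine, asparagine and lysine, by 0.24 to 0.33. Iars and Nars overlapped between the groups, and 11 of the 13 did not.

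Cars and Rars, for cysteine and arginine, went the other way. Cars rose from 14.6, 12.8, 14.6 and 13.3 CPM to 23.4, 21.95, 23.2 and 22.4 CPM, all 4 libraries at 29 °C above all 4 at room temperature (0.71 ± 0.10, adjusted p = 7.09e-06). Rars went from 21.1, 21.3, 23.8 and 20.65 CPM to 24.2, 25.9, 28.9 and 32.2 CPM, where the lowest value at 29 °C lay just above the highest at room temperature (0.36 ± 0.09, adjusted p = 0.00303). The 5 cytosolic genes that did not pass were Wars for tryptophan (-0.22, adjusted p = 0.0705), Lars for leucine (-0.17), Farsa (0.07), Vars for valine (0.07) and Tars for threonine (0.03). Farsa and Farsb encode partners in the same enzyme, and their values at 29 °C were 17.4 to 18.9 CPM and 23.0 to 24.8 CPM against 15.8 to 18.7 CPM and 38.5 to 46.75 CPM at room temperature.

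The cytosolic direction in WT depended on the scaling. With the total count in place of TMM the median of all genes shifted to 0.41, and the cytosolic counts became 5 higher and 7 lower with a median of 0.04, whereas the mitochondrial genes had 0 higher and 12 lower with a median of -0.57. Set against the median of all genes, both sets lay lower under either scaling. WT at 29 °C was also the group with the fewest brown adipocyte marker counts and the largest share of mitochondrial-DNA transcripts, and the part of either was not tested.

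**Figure D2:**
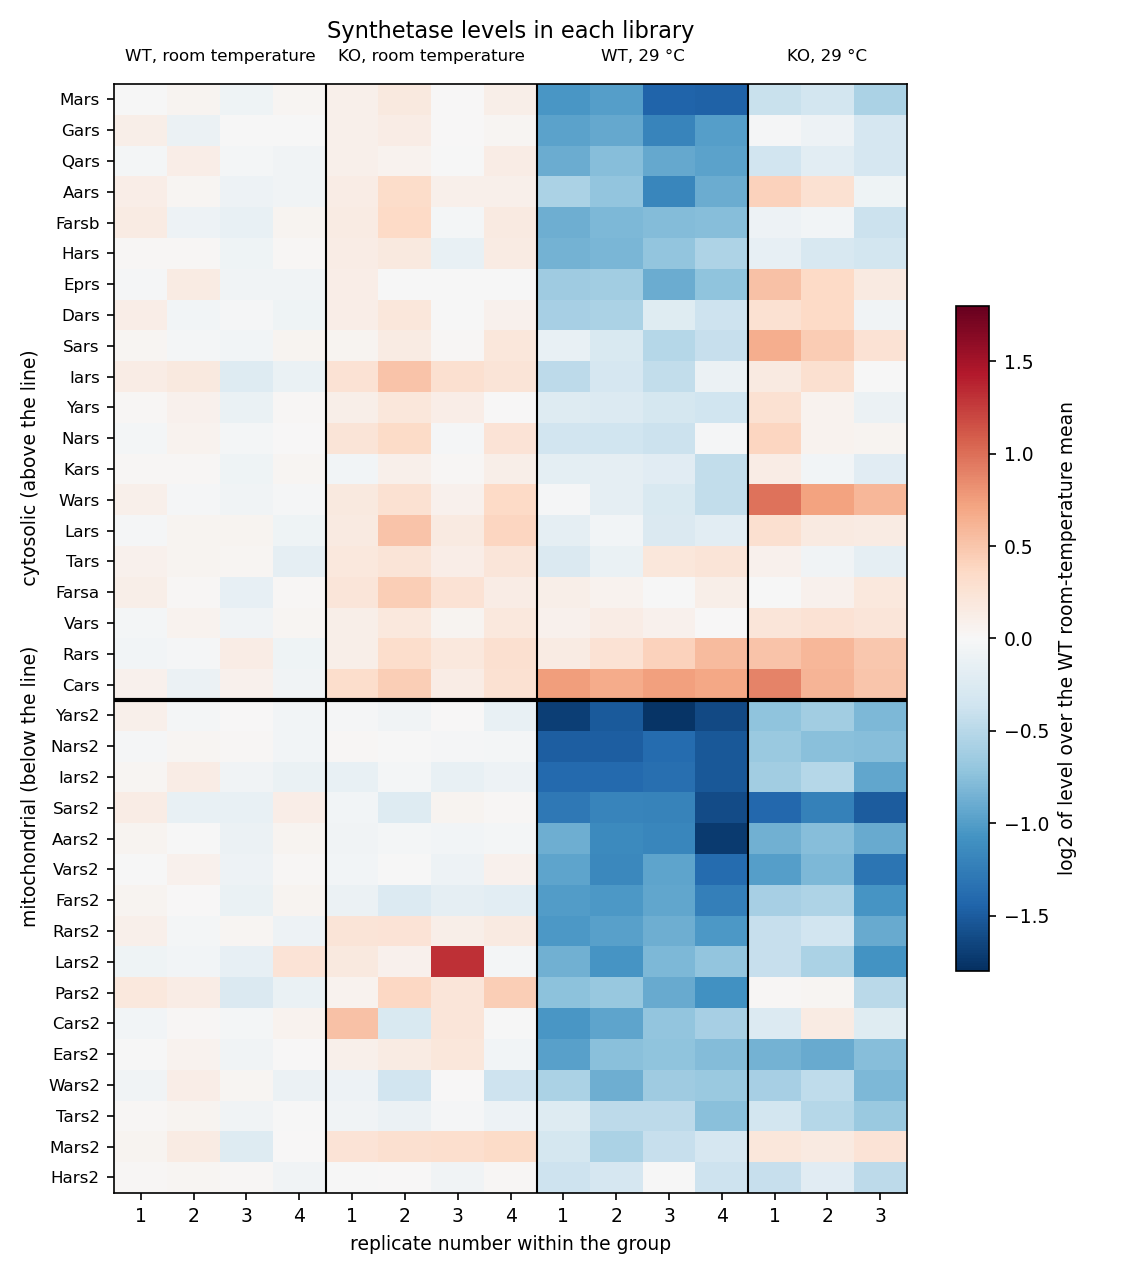
Log2 of each gene's CPM over its mean in WT at room temperature, with 1 column per library and 1 row per gene, cytosolic genes above the thick line and mitochondrial genes under it. WT at 29 °C is blue in most rows, KO at 29 °C is red for Eprs, Sars, Wars, Rars and Cars and blue for most mitochondrial genes, and Lars2 in KO at room temperature replicate 3 stands out in red.

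KO against WT at 29 °C asked what loss of DJ-1 changed when little heat was needed. Synthetase genes were higher in KO: 14 of 20 cytosolic genes rose and none fell, with a median log2 fold change of 0.48, and 9 of 16 mitochondrial genes rose and none fell, with a median of 0.34. Of all genes tested 24.7% were called higher and 20.0% lower (44.7% in either direction), with a median of 0.04. The fused enzyme Eprs, the alanine enzyme Aars and the tryptophan enzyme Wars were about 2-fold higher, and Yars2 led among the mitochondrial genes.

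Eprs measured 62.2, 62.3, 51.8 and 58.5 CPM in WT against 139, 123 and 108 CPM in KO at 29 °C. The lowest KO library was well above the highest WT library, a 2.10-fold difference (1.07 ± 0.10, adjusted p = 1.02e-06). At room temperature Eprs had measured 92.3 to 106.5 CPM in WT, so all 3 KO libraries at 29 °C were also above the WT room-temperature range. Aars measured 56.75, 51.3, 37.1 and 45.3 CPM in WT against 112, 102 and 79.8 CPM in KO, without overlap (1.04 ± 0.13, adjusted p = 1.74e-05). Wars, an enzyme whose gene is also induced by interferon gamma, measured 45.3, 41.2, 37.9 and 33.9 CPM in WT against 90.55, 76.4 and 69.7 CPM in KO (0.99 ± 0.11, adjusted p = 4.42e-06). The 10 interferon-response markers summed to 782, 498 and 351 CPM in the same 3 KO libraries. In WT at 29 °C they summed to 238 to 272 CPM. Wars shared the order of the KO libraries, as did Eprs, Aars and the summed cytosolic set (1309, 1214 and 1070 CPM). Of the 10 markers 4 were called higher in KO against WT at 29 °C and none lower, against 24.7% and 20.0% of all genes tested. In KO at room temperature replicate 3 those markers reached 552.5 CPM while Wars measured 48.3 CPM, the lowest of its group, and the part of the interferon response in the Wars result was not tested.

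Gars measured 81.1, 83.4, 69.4 and 79.3 CPM in WT against 156, 148.5 and 129 CPM in KO, again without overlap (0.88 ± 0.09, adjusted p = 2.23e-06). Sars rose by 0.79, Mars by 0.78, Farsb by 0.64, Dars by 0.63, Qars by 0.60, Hars and Iars by 0.48 each, Nars by 0.44, and Yars and Lars by 0.37 each on the log2 scale, with adjusted p from 1.91e-05 to 0.0053. The 6 cytosolic genes that did not pass were Kars (0.21, adjusted p = 0.074), Rars (0.17), Vars (0.15), Farsa (0.02), Cars (-0.03) and Tars (-0.07). Vars was the only one of these without overlap, at 28.9 to 31.6 CPM in WT and 33.35 to 34.4 CPM in KO. In all, 15 cytosolic genes were higher without overlap and 0 lower, against 23.5% and 19.6% of all genes tested.

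Yars2 measured 9.57, 10.8, 9.13 and 10.05 CPM in WT against 18.8, 20.1 and 17.7 CPM in KO at 29 °C. The KO values were 1.91 times those of WT (0.93 ± 0.09, adjusted p = 1.11e-06), yet below every library at room temperature. Nars2 measured 7.70, 7.71, 8.26 and 7.51 CPM and 13.65, 12.85 and 12.7 CPM (0.74 ± 0.08, adjusted p = 3.18e-06), and Iars2 64.4, 64.4, 66.6 and 59.4 CPM and 111, 119.7 and 89.5 CPM (0.74 ± 0.10, adjusted p = 1.82e-05), both without overlap. Pars2 for proline and Cars2 for cysteine rose by 0.72 each, Mars2 by 0.60 and Rars2 for arginine by 0.45. Aars2 (0.35 ± 0.13, adjusted p = 0.0397) and Fars2 (0.32 ± 0.11, adjusted p = 0.0245) passed although their groups overlapped, as did those of Rars2. Lars2, Vars2, Wars2, Tars2, Ears2, Sars2 and Hars2 did not pass, with log2 fold changes from -0.10 to 0.20. Without the 3 libraries that held muscle transcripts, which left 1 KO library at 29 °C, taken to vary like the other groups, 13 cytosolic and 5 mitochondrial genes were called higher.

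**Figure D3:**
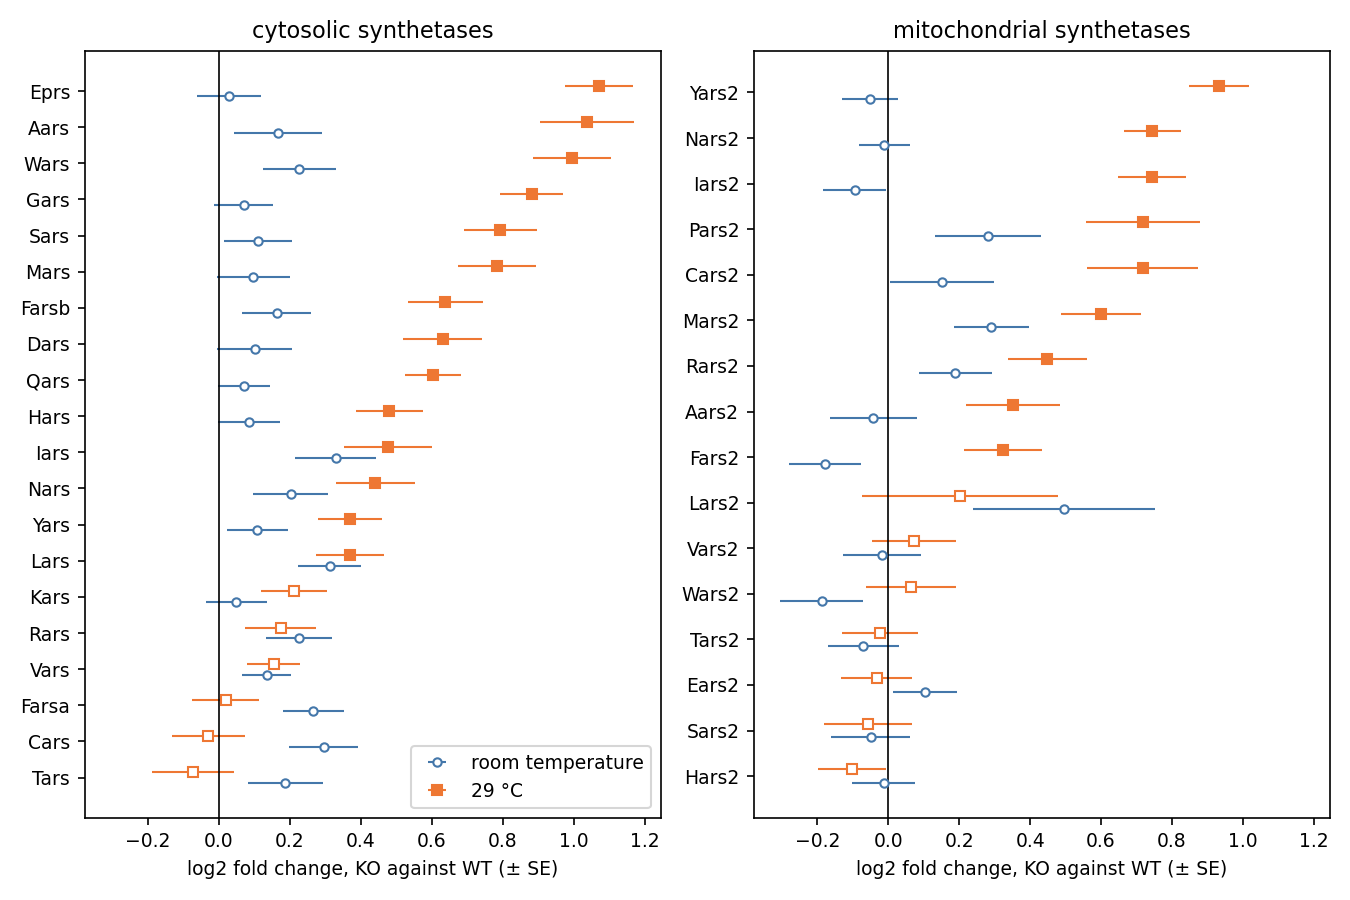
Log2 fold change of KO against WT (± SE, edgeR fit) for each gene at room temperature (circles) and at 29 °C (squares; filled where the adjusted p was under 0.05), in descending order of the value at 29 °C. At room temperature the cytosolic values run from 0.03 to 0.33 with no call, and at 29 °C they reach 1.07.

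At room temperature no synthetase gene was called between KO and WT, in either compartment. This was a comparison with few calls in all: 0.239% of all genes tested passed, 0.0530% higher and 0.186% lower, and DESeq2 and limma-voom called 0 synthetase genes as well. At an unadjusted p under 0.05 there were 7, the cytosolic Lars, Farsa, Cars, Iars, Rars and Wars and the mitochondrial Mars2, all higher in KO. Of all genes tested 11.1% had an unadjusted p under 0.05, 6.01% with a higher level in KO. The 20 cytosolic log2 fold changes were all above 0, from 0.03 to 0.33, with a median of 0.15 against 0.01 over all genes. Lars had the smallest adjusted p (0.192), at 26.2, 27.6, 27.8 and 25.4 CPM in WT and 29.9, 38.1, 29.85 and 34.9 CPM in KO, and the KO libraries all lay above those of WT. In all, 5 cytosolic and 2 mitochondrial genes were higher in KO without overlap and none was lower, against 3.94% and 4.28% of all genes tested. Without KO replicates 2 and 4, which had the lowest brown adipocyte marker sums at room temperature (8771 and 7735 CPM), the cytosolic median was 0.09 and 19 of 20 values were above 0. The 16 mitochondrial values had a median of -0.02, with 6 above 0 and 10 below.

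Lars2, the mitochondrial leucine enzyme, had the largest mitochondrial value at room temperature, and 1 library carried it. It measured 78.35, 79.9, 74.4 and 97.6 CPM in WT against 93.1, 87.15, 204.5 and 80.7 CPM in KO, where replicate 3 was more than 2-fold above its group mates. The log2 fold change was 0.50 ± 0.26 (adjusted p = 0.502) with replicate 3 and 0.07 ± 0.14 (adjusted p = 0.894) without it. The summed mitochondrial level of that library was 794 CPM with Lars2 and 589.7 CPM without it, inside the 582 to 602 CPM of KO at room temperature.

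Housing at 29 °C in KO lowered most mitochondrial genes and moved cytosolic genes in both directions. In mitochondria 14 of 16 genes fell and none rose, with a median log2 fold change of -0.62. In the cytosol 5 genes rose, 4 fell and 11 did not pass, with a median of -0.05. Of all genes tested 24.3% were called higher and 21.7% lower (46.0% in either direction), with a median of 0.04. The cytosolic shares and median were near these. Without overlap between the temperatures 14 mitochondrial genes were lower, and 6 cytosolic genes were higher and 6 lower, against 24.7% of all genes tested higher and 23.4% lower.

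Sars2 fell most in KO, from 20.1, 17.7, 21.4 and 21.0 CPM at room temperature to 7.82, 8.98 and 7.35 CPM at 29 °C (-1.32 ± 0.13, adjusted p = 1.84e-06). The groups did not overlap, and the value in WT had been -1.31. Vars2 went from 42.1, 43.3, 40.7 and 46.2 CPM to 21.9, 24.8 and 17.5 CPM (-1.01 ± 0.12, adjusted p = 1.05e-05), with replicate 3 the lowest at 29 °C. Ears2, the mitochondrial glutamate enzyme, went from 15.3, 15.9, 16.5 and 13.9 CPM to 7.96, 7.66 and 8.42 CPM, without overlap (-0.94 ± 0.10, adjusted p = 3.67e-06). Aars2 went from 41.7, 42.6, 42.3 and 42.4 CPM to 23.8, 25.6 and 23.3 CPM, again without overlap (-0.80 ± 0.13, adjusted p = 0.000181). Lars2 went from 93.1, 87.15, 204.5 and 80.7 CPM to 61.95, 55.75 and 39.2 CPM, without overlap and with replicate 3 at room temperature far above the rest. It was called at -1.15 ± 0.29 (adjusted p = 0.00496), and at -0.79 ± 0.15 (adjusted p = 0.000593) without KO at room temperature replicate 3. Rars2, Nars2, Yars2, Iars2, Fars2, Wars2, Tars2, Pars2 and Hars2 fell by 0.34 to 0.72 on the log2 scale. Pars2 had an adjusted p of 0.0497. Cars2 (-0.25) and Mars2 (-0.09) did not pass.

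The 5 cytosolic genes that rose in KO were Wars, Cars, Sars, Eprs and Rars. Wars went from 52.0, 55.8, 48.3 and 59.1 CPM at room temperature to 90.55, 76.4 and 69.7 CPM at 29 °C, without overlap (0.55 ± 0.11, adjusted p = 0.000731). Cars (0.39), Sars (0.35), Eprs (0.33) and Rars (0.30) rose less, with adjusted p from 0.00602 to 0.02. The 4 that fell were Mars, Qars, Hars and Farsb. Mars went from 66.7, 70.9, 62.7 and 67.45 CPM to 47.5, 49.55 and 42.1 CPM (-0.53 ± 0.11, adjusted p = 0.00126), and all KO values at 29 °C were below those at room temperature. Qars went from 58.3, 57.3, 54.6 and 60.0 CPM to 43.3, 48.05 and 44.5 CPM (-0.35 ± 0.08, adjusted p = 0.00235), Hars from 51.9, 53.6, 43.3 and 52.9 CPM to 42.8, 38.9 and 37.9 CPM (-0.34 ± 0.10, adjusted p = 0.00841) and Farsb from 46.6, 53.9, 41.1 and 47.2 CPM to 39.6, 40.7 and 32.3 CPM (-0.33 ± 0.11, adjusted p = 0.0176). None of these 3 overlapped between temperatures. Scaled by the total count, 10 cytosolic genes were called higher and 0 lower, and 9 mitochondrial genes lower and 0 higher. That scaling moved the median of all genes to 0.35, above the cytosolic median of 0.254 and the mitochondrial median of -0.315. Set against the median of all genes, the cytosolic set thus did not rise. Without KO at room temperature replicate 3 the cytosolic calls were 2 higher and 5 lower.

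Of the 13 cytosolic genes that fell with housing in WT, 4 also fell in KO, 7 were not called in KO (Aars, Dars, Gars, Iars, Kars, Nars and Yars) and 2 rose (Eprs and Sars). The rises of Eprs and Sars lost their call without KO at room temperature replicate 3, and without KO at 29 °C replicate 1. Of the 16 mitochondrial genes that fell in WT, 14 also fell in KO. How many of all genes that fell in WT also fell in KO was not counted. These joint counts therefore stand without a background share. Whether the housing effect differed between the genotypes was tested gene by gene with the interaction, which is also the KO effect at 29 °C minus that at room temperature. It was called for 10 of 20 cytosolic and 4 of 16 mitochondrial genes, all with a positive sign, against 16.0% of all genes tested with a positive sign (28.3% with either). Cars was called with a negative sign without KO at room temperature replicate 3 (-0.43, adjusted p = 0.0337) and without KO at 29 °C replicate 1 (-0.45, adjusted p = 0.0293). The median was 0.33 for the cytosolic genes, 0.29 for the mitochondrial genes and 0.01 for all genes.

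The smallest p of the interaction was that of Yars2 (0.98 ± 0.12, adjusted p = 3.44e-05), followed by Eprs (1.04 ± 0.13, adjusted p = 6.16e-05). Yars2 in KO went from 30.5, 29.5, 31.0 and 28.2 CPM at room temperature to 18.8, 20.1 and 17.7 CPM at 29 °C, a fall of 0.66 on the log2 scale against 1.64 in WT. Eprs in KO went from 105, 96.1, 96.6 and 96.1 CPM to 139, 123 and 108 CPM, higher in all 3 libraries, where WT had gone down. Nars2 (0.76 ± 0.11, adjusted p = 0.000125), Gars (0.81 ± 0.12, adjusted p = 0.000214) and Iars2 (0.84 ± 0.13, adjusted p = 0.000283) followed. In KO, Nars2 went from 21.9, 21.5, 21.3 and 21.0 CPM to 13.65, 12.85 and 12.7 CPM. Gars went from 168, 174, 159 and 163 CPM to 156, 148.5 and 129 CPM, and Iars2 from 155, 167, 156 and 160.3 CPM to 111, 119.7 and 89.5 CPM. With housing in KO, Nars2 (-0.71) and Iars2 (-0.58) fell, and Gars was not called (-0.20, adjusted p = 0.0758). The other genes called were Wars, Qars, Sars, Aars, Mars, Dars, Farsb and Hars in the cytosol and Fars2 in mitochondria, from 0.40 to 0.87. Sars2, Vars2 and Ears2 had no call in the interaction, with housing log2 fold changes of -1.31, -1.10 and -0.80 in WT and -1.32, -1.01 and -0.94 in KO.

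**Figure D4:**
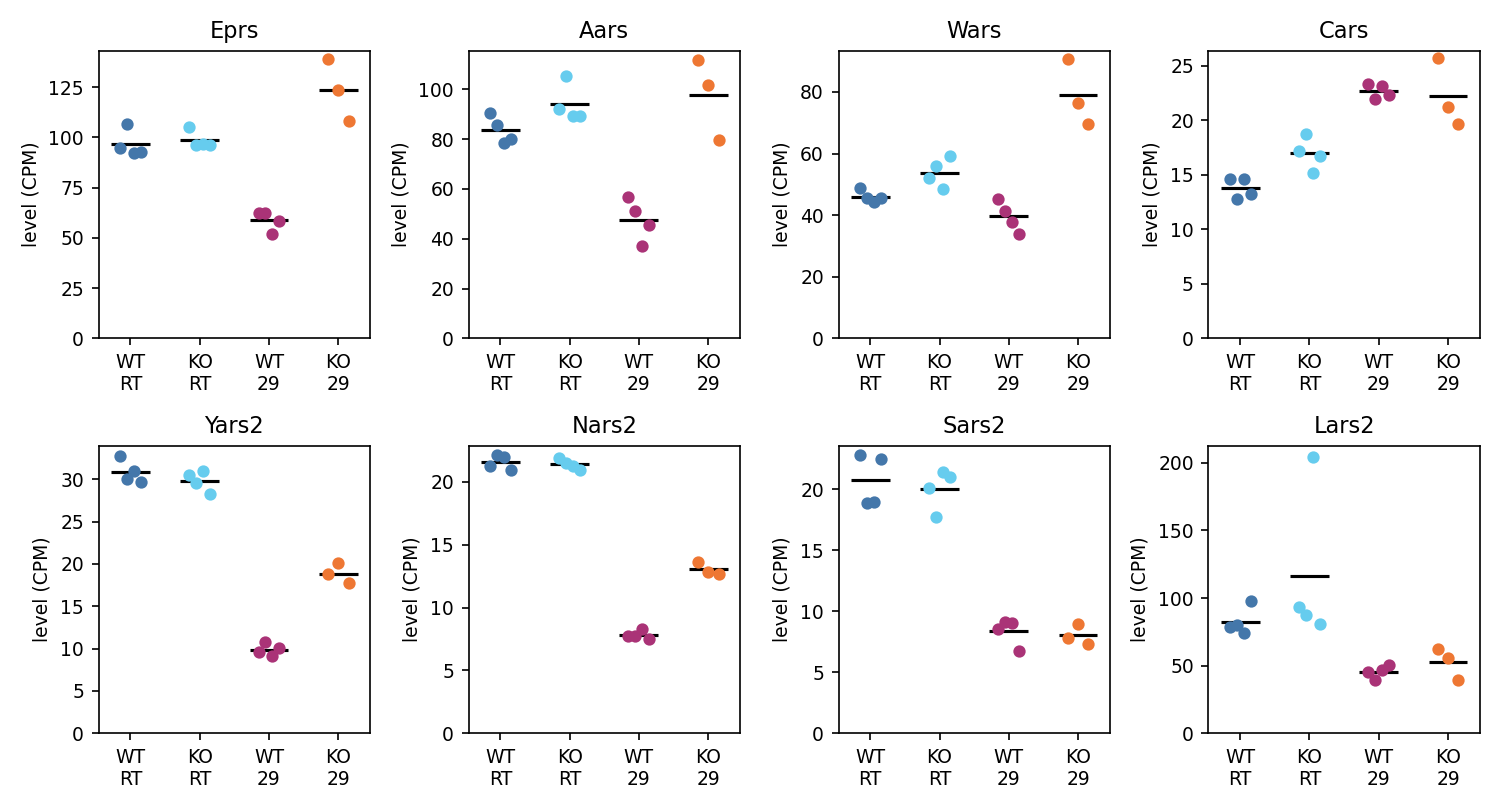
CPM of 8 genes in each library, with a bar at the group mean; RT is room temperature and 29 is 29 °C. Eprs, Aars and Wars in KO at 29 °C lie above WT at 29 °C and reach or pass the room-temperature values; Cars is higher in both 29 °C groups; Yars2 and Nars2 in KO lie between WT at 29 °C and room temperature; Sars2 is low in both 29 °C groups; Lars2 has 1 high library in KO at room temperature.

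As a percentage of the WT room-temperature mean, the median cytosolic gene stood at 80.9% in WT and 111.8% in KO at 29 °C. The median mitochondrial gene stood at 52.9% in WT and 63.0% in KO. Of the cytosolic genes 13 of 20 were at or above the WT room-temperature mean in KO at 29 °C, and of the mitochondrial genes 1 of 16, Mars2 at 115.1%. In KO at room temperature 20 of 20 cytosolic genes (median 110.8%) and 6 of 16 mitochondrial genes (median 98.9%) were already there. These percentages are on the TMM scale, and the share of all genes at or above that mean was not counted. The cytosolic values in KO at 29 °C ran from 74.1% (Mars) to 171.4% (Wars), and the mitochondrial ones from 38.7% (Sars2) to that of Mars2.

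**Figure D5:**
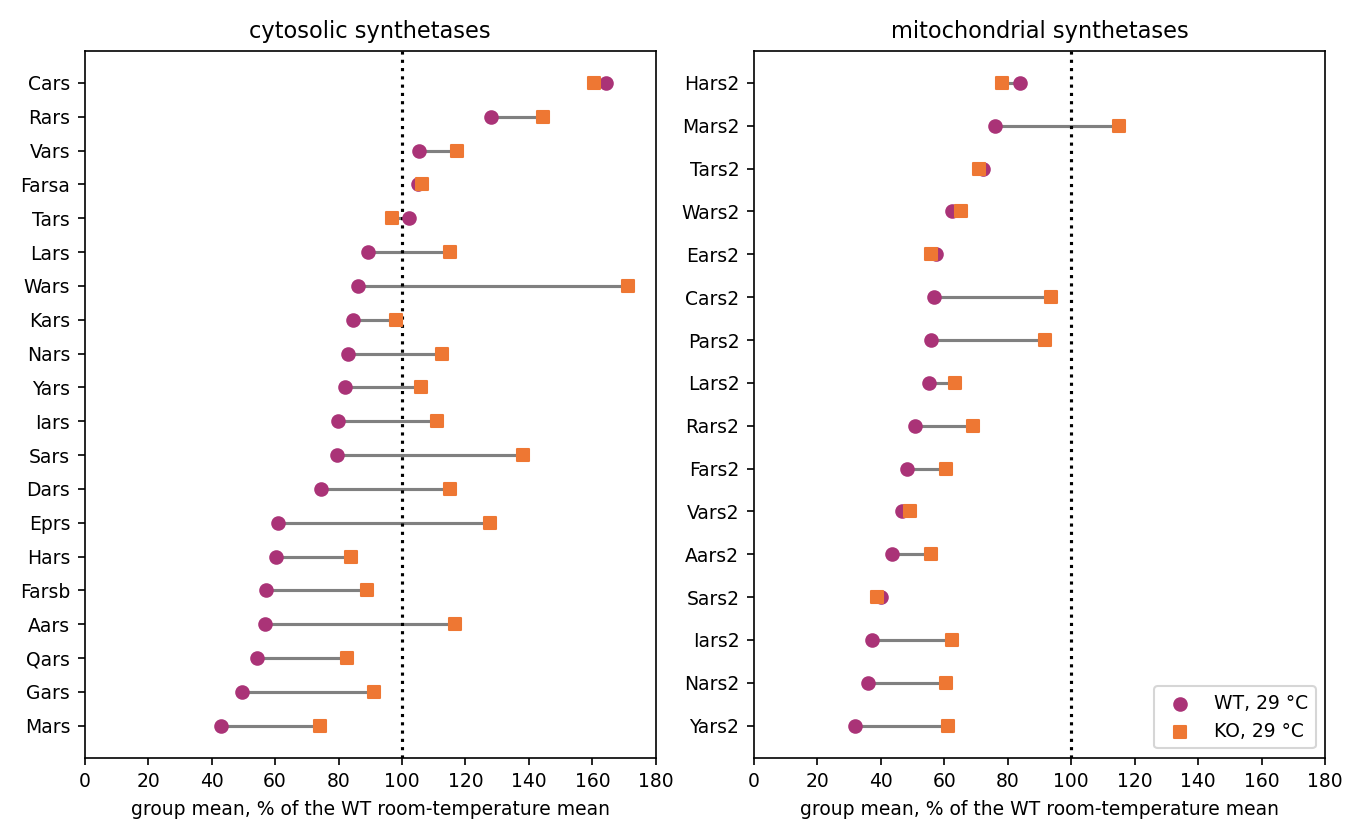
Group means at 29 °C as a percentage of each gene's mean in WT at room temperature (dotted line, 100%), WT as circles and KO as squares, cytosolic genes on the left. In KO 13 of 20 cytosolic genes and 1 of 16 mitochondrial genes are at or right of the line.

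Pairing the enzymes by amino acid gave 16 pairs, with Eprs set against both Ears2 and Pars2 and Farsa standing for the cytosolic phenylalanine enzyme. With housing in WT the mitochondrial gene had the lower log2 fold change in 14 of 16 pairs, by a median of 0.84. The exceptions were histidine (-0.73 for Hars and -0.26 for Hars2) and methionine (-1.22 for Mars and -0.40 for Mars2). The gap was widest for cysteine, where Cars rose (0.71) and Cars2 fell (-0.81). With housing in KO the mitochondrial gene was the lower in 15 of 16 pairs, by a median of 0.71, with methionine again the exception and serine the widest (0.35 for Sars and -1.32 for Sars2). For KO against WT at 29 °C the pairs were split, 9 of 16 lower in mitochondria with a median difference of -0.12. Glutamate gave the widest gap one way (1.07 for Eprs and -0.03 for Ears2) and cysteine the other way (-0.03 for Cars and 0.72 for Cars2). These differences are descriptions over genes of the same libraries.

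The enzymes of the multi-synthetase complex and the other cytosolic genes were counted separately. In KO against WT at 29 °C, 6 of 8 complex genes rose (median 0.54) and 8 of 12 outside it rose (median 0.46), and none fell in either, against 24.7% of all genes tested called higher and 20.0% lower. With housing in WT 6 of 8 fell and 1 rose, Rars, and outside the complex 7 of 12 fell and 1 rose, Cars, against 32.8% of all genes tested called lower and 35.9% higher. Of the 3 scaffold genes Aimp1, Aimp2 and Eef1e1 none was called between KO and WT at 29 °C, with a median of 0.07. With housing in WT Aimp2 rose from 7.24 ± 0.47 to 11.9 ± 1.1 CPM (SD, n = 4 each; 0.72, adjusted p = 3.09e-05) and Aimp1 from 19.7 ± 1.8 to 23.4 ± 0.7 CPM (SD, n = 4 each; 0.25, adjusted p = 0.0155). Both scaffold genes rose with housing in KO as well (0.51 and 0.41). By catalytic class, 6 of 9 class I and 7 of 10 class II cytosolic genes rose in KO at 29 °C, with Eprs in both classes and left out of either count. Gars and Kars, which serve both compartments, fell with housing in WT and were not called with housing in KO.

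The mitochondrial genes can be set beside other genes of the same translation system. Of 14 listed mitochondrial translation factors 11 were tested: with housing in WT 11 fell, with housing in KO 10 fell, and in KO at 29 °C 6 rose against WT, with no call in the other direction. Of all genes tested, 32.8% were called lower with housing in WT, 21.7% lower with housing in KO and 24.7% higher in KO at 29 °C. Gfm1, the mitochondrial elongation factor G, went from 148 ± 5 CPM in WT at room temperature to 36.2 ± 1.6 CPM in WT at 29 °C (SD, n = 4 each; -2.03, adjusted p = 2.37e-10) and measured 91.5 ± 16.5 CPM in KO at 29 °C (SD, n = 3; 1.34 against WT, adjusted p = 2.85e-07). Of 12 genes that modify, process or otherwise charge mitochondrial tRNA, 9 fell with housing in WT and 5 in KO, and 5 rose in KO against WT at 29 °C, to be read against the same shares of all genes. Mto1, which modifies the wobble base of several mitochondrial tRNAs, was the leader of these (-1.75 with housing in WT, -0.84 in KO, and 0.95 for KO against WT at 29 °C).

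The cytosolic genes can be set beside the stress response that is known to raise them. Of 24 genes listed as ATF4 targets or parts of the integrated stress response, 11 rose and 3 fell in KO against WT at 29 °C (median 0.62), where 24.7% of all genes tested were called higher and 20.0% lower. With housing in WT 9 rose and 8 fell (median 0.54), shares near the 35.9% and 32.8% of all genes. With housing in KO 16 rose and 2 fell (median 1.03), against 24.3% and 21.7% of all genes. Asns, asparagine synthetase, which makes the amino acid that Nars charges, measured 55.0 ± 1.6 CPM in WT against 63.7 ± 7.0 CPM in KO at room temperature (SD, n = 4 each), 29.1 ± 2.7 CPM in WT (SD, n = 4) and 71.7 ± 15.8 CPM in KO (SD, n = 3) at 29 °C. It was 1 of the 11 that rose in KO against WT at 29 °C (1.30 ± 0.13, adjusted p = 1.67e-06 in edgeR's test) and was chosen after its values were seen. Ddit3 was 1 of the 3 that fell there (-0.56 ± 0.15, adjusted p = 0.00672). Atf4 mRNA itself measured 202 ± 36 CPM in WT against 163 ± 29 CPM in KO at 29 °C, with no call between them (-0.31 ± 0.22, adjusted p = 0.277), and rose with housing in WT (0.94, adjusted p = 0.000934) and in KO (0.82, adjusted p = 0.00743). ATF4 is known to be set largely by translation of its mRNA, which these data do not measure. Of the 4 kinases that switch this response on, Eif2ak1 fell with housing in WT (-1.78) and rose in KO against WT at 29 °C (1.17, adjusted p = 1.77e-07). Eif2ak3 did the same by less (-0.57 and 0.37). Eif2ak2 and Eif2ak4 were not called in either comparison. With housing in KO only Eif2ak1 was called, and it fell (-0.62). Of 14 amino acid transporters tested, 4 rose and 1 fell in KO against WT at 29 °C. Of 7 genes listed for cytosolic elongation, the kinase gene Eef2k among them, 2 rose and 1 fell. In both lists the share that rose was near the 24.7% of all genes tested.

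Some members share annotated exons with a neighbour. Without a stated strand setting it is not known whether reads inside a shared stretch were told apart. The deposited counts had 6 entries with decimals for Farsb. They had 0 for Iars2, Aars, Fars2, Vars2, Cars2, Nars2, Cars, Hars, Hars2 and Mars. Whether reads in these stretches were split between genes was not tested. The stretches of 195 bases or more were 2034 bases between Iars2 and Rab3gap2, 1326 between Aars and Exosc6 (on the same strand), 501 between Fars2 and Nrn1, 465 between Vars2 and the antisense gene Gm20483, 422 between Cars2 and Naxd, 284 between Nars2 and C230038L03Rik, 248 between Farsb and Sgpp2, 211 between Cars and the pseudogene Gm15580 and 195 between Hars and Hars2. Mars shares 68 bases with Ddit3, itself a gene of the integrated stress response, which rose with housing in WT (1.06) where Mars fell (-1.22), and was lower in KO against WT at 29 °C (-0.56 ± 0.15, adjusted p = 0.00672) where Mars rose (0.78). Eprs and Iars2, which rank near the top of their compartments in KO against WT at 29 °C, lie on the same chromosome (chr1:185363044-185428360, plus strand, and chr1:185284726-185329396, minus strand, GRCm38/mm10) and share no exon. Yars2 lies at chr16:16302965-16309640 (plus strand), Gars at chr6:55038007-55079500 (plus strand) and Wars at chr12:108860030-108894174 (minus strand).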

How the data were processed

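Brown adipose tissue RNA of 15 samples was read as 150 bp paired ends, per the labels' protocols. Per the submitters' processing notes, the tools were STAR 2.7.10a with mm10, RSEM 1.2.28 for quantification and DESeq2 1.3.40. The deposited values are the authors' RSEM expected counts, 1 per symbol and library; 7.26% have decimals, and they were rounded to whole numbers. Spreadsheet dates replaced 24 symbols, which are not reported here. Totals ran from 23977448 to 26789246 per library, except 38800967 in KO at 29 °C replicate 1; counts limit the precision of low genes most. The strand setting and the annotation release are not given in the sources used here.

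Genes passing edgeR's filterByExpr by group (minimum count 10) numbered 15083. They were scaled by TMM and fitted in 1 model of the 4 groups (edgeR 4.0.16, robust quasi-likelihood, 11 residual degrees of freedom; limma 3.58.1, R 4.3.3). P-values were adjusted by Benjamini-Hochberg over all genes within each comparison, and calls are adjusted p under 0.05. Levels are TMM-scaled CPM; per-kilobase levels use the longest coding transcript of GENCODE M21, which held 80.8% of the symbols and all 36 members. The fit was tested on simulated data. A promoter stretch that the motif search found is not reported here.

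The members and the lists were chosen with earlier results of these data known. Library values are given for the 5 largest called changes of each pairwise comparison, up to 5 genes of the interaction and calls against the majority of a compartment. Lars, Asns and the neighbours were chosen after their values were seen. Alternatives were DESeq2 1.42.0 or limma-voom for the test, RLE scaling, other filters, fits to the compared libraries alone, the replicate number as a block, thresholds of adjusted p under 0.01 or a change over 1.5-fold, and leaving out each library. Added after seeing the data were leaving out 3 libraries with muscle transcripts, leaving out 2 KO libraries at room temperature, TMM without the 13 mitochondrially encoded genes, and total-count scaling of the fit.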

Additional observations from a re-analysis of the deposited data

Results flagged for a closer look

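The KO effect on 14 genes differed between temperatures, by edgeR's interaction test with adjustment over all genes. The KO effect at 29 °C minus that at room temperature, on the log2 scale, was 1.04 for Eprs, 0.87 for Aars, 0.81 for Gars, 0.77 for Wars, 0.69 for Mars, 0.68 for Sars, 0.54 for Qars, 0.53 for Dars, 0.48 for Farsb and 0.40 for Hars among the cytosolic genes. It was 0.98 for Yars2, 0.84 for Iars2, 0.76 for Nars2 and 0.50 for Fars2 among the mitochondrial genes. Adjusted p ran from 3.44e-05 (Yars2) to 0.0307 (Hars).

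In 9 of the 108 gene and group combinations with 4 libraries, 1 library lay far from the other 3 (a gap over 0.829 of the group's range); chance gives about 1 in 20. Lars2 in KO at room temperature replicate 3 measured 204.5 CPM, against 80.7 to 93.1 CPM in the others. The same library was low for Hars, 43.3 CPM against 51.9 to 53.6 CPM. WT at room temperature replicate 3 was low for Hars (45.3 CPM, the others 48.2 to 48.5 CPM) and for Kars (68.2 CPM, the others 73.1 to 73.6 CPM). WT at 29 °C replicate 4 was low for Kars (53.1 CPM, the others 62.4 to 64.3 CPM) and high for Nars (78.3 CPM, the others 60.4 to 62.4 CPM); it was also the library with the largest share of mitochondrial-DNA transcripts, 41.6%. Hars2 was low in WT at room temperature replicate 4 (45.1 CPM, the others 47.9 to 48.4 CPM) and high in WT at 29 °C replicate 3 (47.2 CPM, the others 36.6 to 38.3 CPM). Eprs was high in KO at room temperature replicate 1, at 105.3 CPM against 96.1 to 96.6 CPM.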

How the results depend on the processing

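RLE scaling, other filters, only the libraries compared, DESeq2, limma-voom and leaving out any 1 library kept the counts of called synthetases within 1.5 times those reported; leaving out 1 library gave 0 at room temperature, 21 to 23 for KO against WT at 29 °C (14 to 15 cytosolic, 7 to 9 mitochondrial), 29 to 32 for housing in WT (13 to 16 and 15 to 16), 20 to 23 for housing in KO (7 to 9 and 12 to 14) and 11 to 17 for the interaction (8 to 11 and 3 to 6). At an adjusted p under 0.01 housing in KO left 5 cytosolic calls. Above 1.5-fold there were 15 for KO against WT at 29 °C (9 cytosolic), 8 cytosolic for housing in WT, 8 for housing in KO (0 cytosolic, 8 mitochondrial) and 9 for the interaction (6 cytosolic). Without the 3 libraries with muscle transcripts 5 mitochondrial genes were called for KO against WT at 29 °C. Scaled by the total count, 9 mitochondrial genes were called for housing in KO, and the sums in percent of WT at room temperature were 90.9 (cytosolic, WT), 137.6 (cytosolic, KO), 64.0 (mitochondrial, WT) and 81.5 (mitochondrial, KO) at 29 °C, against 71.4, 109.5, 50.1 and 64.9 under TMM. That scaling turned the sign of log2 fold changes with housing in WT of Iars (0.016), Kars (0.117), Nars (0.072), Sars (0.023), Yars (0.066), Hars2 (0.10) and, not called in either scaling, Wars (0.14), and in KO of Nars (0.28), Yars (0.28) and, not called in either, Gars (0.10) and Cars2 (0.062). Uncalled values near 0 also changed sign. With housing in KO, leaving out 1 library gave -0.054 to 0.181 for Aars, -0.155 to 0.03 for Nars and -0.131 to 0.06 for Yars; Aars was -0.004 with no filter, Nars 0.006 with the replicate block, 0.10 without the libraries with muscle transcripts and 0.061 without KO at room temperature replicates 2 and 4, and Yars 0.082 without the former. With housing in WT Tars ran from -0.045 to 0.118 when 1 library was left out.

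Of the calls named, those lost most often for KO against WT at 29 °C were Aars2 (14 alternatives) and Fars2 (8). For housing in KO they were Pars2 (14), Farsb (5) and Rars (5), and for housing in WT Nars (9) and Iars (6). For the interaction they were Hars (10) and Farsb (5). The cause was not tested. The replicate numbers are shared by the groups. Deviations of same-numbered libraries from their group means correlated at -0.28 to 0.33 over 21 pairs, 4 of them above 0.1. Differently numbered pairs at 29 °C included -0.61 (WT replicate 2 with KO replicate 1) and 0.50 (WT replicate 2 with KO replicate 3). With so few libraries per group, these correlations cannot decide whether the numbers pair the samples. With the replicate block the counts were 0, 22, 31, 23 and 14 in the order above.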
